A study of Homo sapiens with 6 samples.

Results

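The MYC, MAX and MXD network is the set of basic helix-loop-helix leucine zipper proteins built around MAX, and its 10 genes MYC, MYCN, MYCL, MAX, MXD1, MXD3, MXD4, MXI1, MNT and MGA were taken by symbol from the count files. All 10 were found among the 47470 genes listed, and all 10 were among the 15298 genes tested after the filter on low counts. The libraries were RNA-seq of HEK293T cells, an immortal line derived from human embryonic kidney and made to express SV40 large T antigen. Of these libraries 3 came from untreated cells and 3 from cells cultured for 1 day with 1 mM valproic acid (VPA), an inhibitor of class I and IIa histone deacetylases, and the labels give no gene edit or transgene made for the experiment. The comparison asked which members of the network differed in transcript level between VPA-treated and untreated cells.

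MYC, MYCN and MYCL activate transcription as heterodimers with MAX, and they bind the E-box CACGTG. The MXD proteins (MXD1, MXD3, MXD4 and MXI1) and MNT compete for MAX and for the same E-boxes, and they recruit the SIN3 corepressor with histone deacetylases. MGA also pairs with MAX and works within the Polycomb complex PRC1.6, which keeps germ cell genes silent. MYC drives ribosome production and growth in dividing cells, whereas MYCN and MYCL are best known from neural and other embryonic tissues and from tumours in which they are amplified.

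The libraries held 18622267 to 18828495 reads assigned to genes. Normalized counts below are reads scaled by TMM factors to a library of average size, and log2 fold changes are VPA-treated over untreated with a standard error (SE). All 7 markers of embryonic kidney passed the filter, and 2 of them rose while 4 fell, against 32.9% higher and 30.0% lower among all tested genes. Of 12 markers of other cell types, 6 passed the filter, and 5 of these rose and 1 fell, the latter with a log2 fold change of -1.21. VWF and DCN had 0 to 3 reads in each untreated library and passed only through the VPA-treated libraries, so that their rise was fixed by the filter, and with 10 counts required in every library 4 were tested and 3 rose. The summed level of all 12 markers, with VWF and DCN included, was 153 to 158 normalized counts in untreated cells and 546 to 581 in VPA-treated cells. Among those that rose was lumican (LUM), a matrix gene of fibroblasts, which went from 25.4 ± 0.420 to 243 ± 3.27 normalized counts (SD, n = 3), while the T cell gene CD3E and the liver gene ALB had 1 and 2 reads in all 6 libraries together. Their part in the results on the network was not tested. In bulk RNA a smaller share of expressing cells and less RNA per cell cannot be told apart. The labels number the libraries as replicates without naming separate cultures, so p-values measure the spread between these libraries, which may be technical.

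Sequences just upstream of the RefSeq starts of 4 members are shown. They were chosen to set the rising members, MYCN and MYCL, beside MXD4 and MNT, the 2 members that fell and whose windows hold an E-box. They are RefSeq sequences of GRCh38.p14, written 5′ to 3′ on the strand of the gene, without the bases annotated as UTR. Capitals mark the E-box CACGTG, the E2F site TTTGGCGC or TTTCCCGC and the GC box GGGCGG on either strand, where CCGCCC is the GC box read on the other strand. MYCN lies on chromosome 2, and the window is chr2:15940300-15940549 on the plus strand, directly before the start of the gene, and its first bases lie in an exon of MYCNOS on the other strand.
MYCN: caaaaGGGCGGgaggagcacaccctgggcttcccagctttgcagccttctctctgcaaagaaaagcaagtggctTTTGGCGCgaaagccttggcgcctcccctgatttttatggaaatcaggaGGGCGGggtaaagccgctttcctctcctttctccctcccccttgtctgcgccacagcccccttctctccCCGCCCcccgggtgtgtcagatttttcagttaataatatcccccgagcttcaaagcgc
MYCL lies on the minus strand of chromosome 1, and the bases shown are chr1:39901920-39902140.
MYCL: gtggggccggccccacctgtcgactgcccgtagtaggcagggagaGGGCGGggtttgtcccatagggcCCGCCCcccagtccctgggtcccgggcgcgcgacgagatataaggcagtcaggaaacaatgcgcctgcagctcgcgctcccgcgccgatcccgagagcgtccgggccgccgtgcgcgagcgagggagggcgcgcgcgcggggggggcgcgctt
MXD4 lies on the minus strand of chromosome 4, and the bases shown are chr4:2262110-2262359.
MXD4: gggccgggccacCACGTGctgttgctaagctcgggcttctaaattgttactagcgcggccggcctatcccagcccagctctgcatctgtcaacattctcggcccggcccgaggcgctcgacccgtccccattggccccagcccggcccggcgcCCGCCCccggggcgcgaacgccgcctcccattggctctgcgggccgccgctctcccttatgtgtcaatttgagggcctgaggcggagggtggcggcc
MNT lies on the minus strand of chromosome 17, and the bases shown are chr17:2401105-2401310.
MNT: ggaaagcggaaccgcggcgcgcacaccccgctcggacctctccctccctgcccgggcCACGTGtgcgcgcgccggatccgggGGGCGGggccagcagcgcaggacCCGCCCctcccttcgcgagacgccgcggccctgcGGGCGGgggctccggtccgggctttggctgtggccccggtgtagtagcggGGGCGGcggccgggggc
The E-box, the site bound by the network itself, was found upstream of MXD4 and MNT, which were shown because they hold it. It was absent from the windows of MYCN and MYCL, and also from those of MXD1 and MXD3, which fell as well. No window was given for MYC, and the site was not tested against the direction of change. The E-box lay 238 bases before the start of MXD4 and 193 bases before the start of MNT. The E2F site lay 176 bases before the start of MYCN. Over the 14 upstream windows of 250 bases that RefSeq gave for 9 members, 2 held the E-box, 2 held the E2F site (MYCN and 1 of 3 windows of MGA) and 11 held the GC box. Among all 35116 windows of that length the shares were 6.34%, 1.93% and 42.6%. These letters describe the windows and were not compared with binding data.

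Of the 10 members, MYCN and MYCL rose, 5 fell (MYC, MXD1, MXD3, MXD4 and MNT) and 3 did not pass the test (MAX, MXI1 and MGA). Calls are at an adjusted p under 0.05 in the quasi-likelihood test of edgeR with Benjamini-Hochberg adjustment over all genes tested. At that threshold 32.9% of all tested genes rose and 30.0% fell, and 7 of 10 members were called against 62.9% of all genes. The groups did not overlap for 8 of the 10 members, against 65.8% of all genes tested. With a log2 fold change of at least 1 added, the thresholds used in the study, MYCN alone was up-regulated, against 12.0% of all genes. MYCN passed the filter only through the VPA-treated libraries, where it was high, so its direction was fixed by the filter. With 10 counts required in every library, MYCN was not tested and 0 members were up-regulated at both thresholds. No member was down-regulated at both thresholds in edgeR, with 0 at an unadjusted p under 0.05 and 0 by DESeq2, against 0.503% of all genes.

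**Figure D1:**
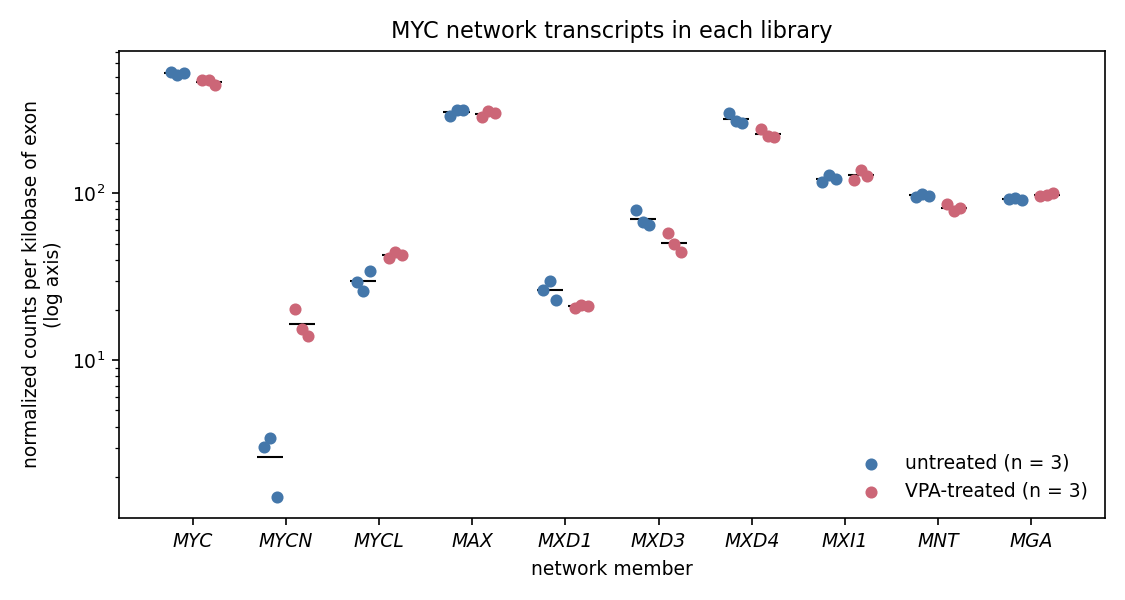
Normalized counts per kilobase of exon (log axis) of the 10 network members in each library, with untreated libraries in blue, VPA-treated libraries in red and the mean of each group as a black line. MYC stayed the highest member in both conditions, and MYCN rose from 2.65 to 16.5 but stayed the lowest.

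MYC itself, the member with the highest level, fell slightly. MYC is the broadly expressed activator of the network, encoded on chromosome 8. Its normalized counts were 3257, 3134 and 3212 in the untreated libraries, against 2905, 2898 and 2710 in the VPA-treated ones. All 3 VPA-treated libraries lay below all untreated ones, as they did for 31.0% of all tested genes. The fall was 0.17 on the log2 scale (SE 0.042), to 0.886 of the untreated level, with an adjusted p of 0.00102 in edgeR. This small fall depended on the scaling of the libraries, since the log2 fold change of MYC was -0.11 with upper quartile scaling, -0.04 with library totals (adjusted p = 0.390 in edgeR) and 0.09 with libraries scaled to the ribosomal protein genes (adjusted p = 0.0541).

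MYCN, the paralogue best known from neuroblastoma and neural progenitors, rose the most of the 10 members. The reads assigned to MYCN were 8, 9 and 4 in the untreated libraries, against 58, 44 and 40 in the VPA-treated ones. Every VPA-treated library thus held several times the reads of any untreated one, although MYCN stayed low in both. Normalized counts went from 7.30 ± 2.75 to 45.4 ± 9.03 (SD, n = 3), a 6.13-fold rise (log2 fold change 2.62, SE 0.287, adjusted p = 7.14e-08 in edgeR). The 95% interval of the log2 fold change was 2.02 to 3.21, a wide range for a gene with under 10 reads in each untreated library. MYCN passed the filter on low counts only through the VPA-treated libraries, where it was high, so that the direction of its change was fixed by the filter. Its log2 fold change lay at the 97.9 percentile of all tested genes.

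MYCL, the paralogue first found amplified in lung cancer, also rose. Its normalized counts were 147, 129 and 169 in the untreated libraries, against 202, 222 and 212 in the VPA-treated ones. The groups did not overlap, as was so for 34.8% of all tested genes in this direction. The rise was 1.43-fold (log2 fold change 0.51, SE 0.102, adjusted p = 0.000154 in edgeR).

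Transcripts made near these genes were low or did not pass the test. PVT1, the long noncoding RNA beside MYC, had 55 to 63 reads in untreated and 63 to 84 in VPA-treated libraries, with a log2 fold change of 0.16 (SE 0.149) and an adjusted p of 0.352 in edgeR. CASC11, on the other side of MYC, had 3 reads in all 6 libraries together. MYCNOS, which is transcribed from the strand opposite MYCN, had 2 reads in all, both in 1 VPA-treated library, and MYCNUT had 0, while MYCL-AS1, opposite MYCL, had 9. MYCBP, a gene for a MYC-binding protein, was listed with 2 reads in all. It is not beside a member, since it lies at 38862490 to 38873378 on chromosome 1 and MYCL at 39895428 to 39901917.

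MAX, the common partner of the network, did not pass the test. Its normalized counts were 1828, 1965 and 1966 in the untreated libraries, against 1788, 1937 and 1884 in the VPA-treated ones. The groups overlapped, and the log2 fold change was -0.04 with a 95% interval of -0.13 to 0.06 (adjusted p = 0.493 in edgeR). Its direction turned with the scaling, to 0.03 with upper quartile scaling, 0.09 with library totals and, scaled to ribosomal protein genes, 0.23, where it passed the test (adjusted p = 0.000168).

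MXD1, MXD3 and MXD4 fell, with values below 0 under every scaling but no call with ribosomal protein scaling. MXD3, a repressor expressed in S phase of dividing cells, fell the most of the 10 members. Its normalized counts were 377, 318 and 307 in the untreated libraries, against 273, 236 and 211 in the VPA-treated ones. The groups were separate, and the fall was 0.48 on the log2 scale (SE 0.0966, adjusted p = 0.000223 in edgeR). MXD3 shares 24.2% of its exon bases with PRELID1 on the opposite strand and 19.5% with RAB24 on its own strand in GENCODE 44, and how the counting used strand is not given in the sources used here, so its value is less certain than the others.

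MXD4, the most abundant MXD gene in these cells, had normalized counts of 2067, 1871 and 1818 in the untreated libraries, against 1666, 1513 and 1487 in the VPA-treated ones. All VPA-treated libraries were lower, with a fall of 0.30 on the log2 scale (SE 0.0537, adjusted p = 4.61e-05 in edgeR). MXD1, the founding MXD gene and a marker of cells that leave the cycle and differentiate, had 168, 189 and 146 normalized counts in the untreated libraries, against 130, 137 and 134 in the VPA-treated ones. It fell by 0.33 on the log2 scale (SE 0.108, adjusted p = 0.0118 in edgeR), with no overlap. The call on MXD1 was lost with DESeq2 (adjusted p = 0.0513), library totals (adjusted p = 0.129 in edgeR) and without untreated replicate 2 (adjusted p = 0.0888 in edgeR).

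MXI1, the 4th MXD gene, did not share the fall. Its normalized counts were 687, 765 and 718 in the untreated libraries, against 711, 809 and 749 in the VPA-treated ones. The groups overlapped, and the log2 fold change was 0.06 with a 95% interval of -0.06 to 0.19 (adjusted p = 0.370 in edgeR). MXI1 passed the test as higher with library totals, at 0.20, and with ribosomal protein scaling, at 0.33.

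MNT, the widely expressed repressor that also pairs with MLX, had normalized counts of 827, 867 and 839 in the untreated libraries, against 750, 680 and 710 in the VPA-treated ones. The groups were separate, and MNT fell by 0.24 on the log2 scale (SE 0.055, adjusted p = 0.000627 in edgeR). The call on MNT was lost with library totals (log2 fold change -0.11, adjusted p = 0.0880 in edgeR) and with ribosomal protein scaling, where its log2 fold change was 0.03.

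MGA, the large Polycomb-linked partner of MAX, leaned the other way. Its normalized counts were 1855, 1870 and 1834 in the untreated libraries, against 1932, 1974 and 2012 in the VPA-treated ones. Every VPA-treated library was higher than every untreated one, but the log2 fold change of 0.09 (SE 0.0422) missed the threshold, with an adjusted p of 0.0678 in edgeR. It passed with upper quartile scaling (0.16), library totals (0.22) and ribosomal protein scaling (0.36), and also with 10 counts required in every library (0.11, adjusted p = 0.0245 in edgeR).

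**Figure D2:**
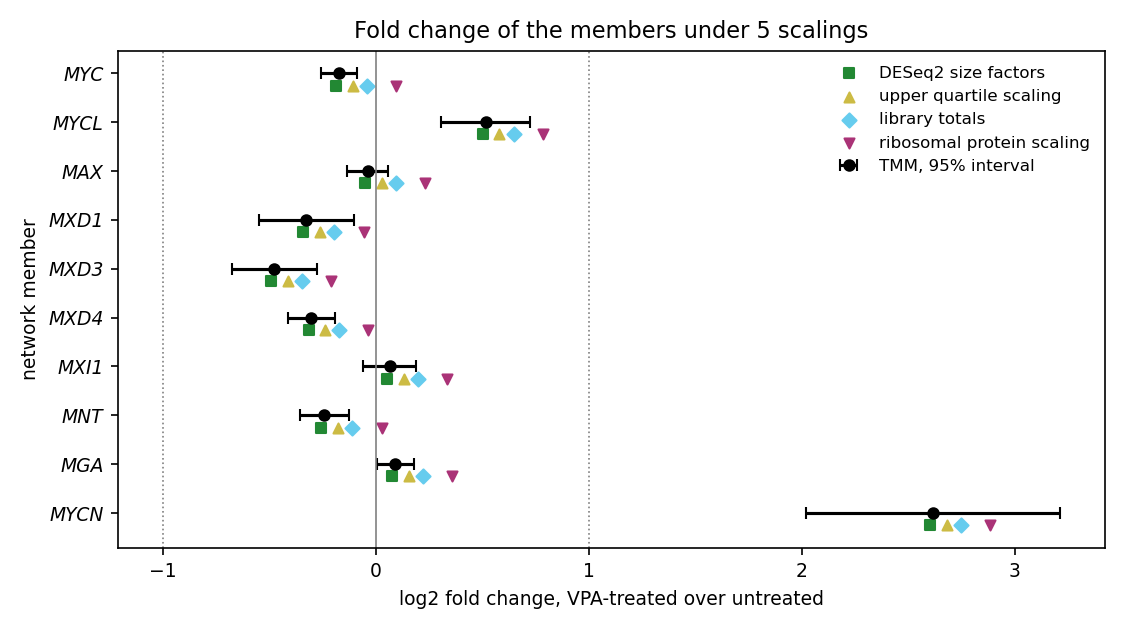
Log2 fold change (VPA-treated over untreated) of each member, with the TMM value and its 95% interval as a black circle and bar, and the values under 4 other scalings as coloured symbols below it. Each scaling shifts the members together: MYCN and MYCL stay above 0 and MXD1, MXD3 and MXD4 below 0 throughout, while MYC, MAX and MNT cross 0.

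The scalings differed by a shift common to all genes. For the typical gene, taken as the median over all genes tested, the log2 fold change was 0.01 under TMM, 0.07 under upper quartile scaling, 0.14 under library totals and 0.27 under ribosomal protein scaling. Of all genes called, 52.3% were higher with TMM, 63.0% with upper quartile scaling, 73.9% by library totals and 91.3% by ribosomal protein scaling. Relative to that median, the log2 fold change of MYC was -0.18, that of MNT was -0.25 and that of MAX was -0.04, values that a common shift leaves in place by construction. Genes averaging 1000 or more normalized counts, as MYC does, had a median log2 fold change of -0.15 under TMM, and 57.4% of them were lower, so the -0.17 of MYC lay close to that median.

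Levels per kilobase of exon, which take account of gene length, placed MYC first. The lengths are unions of all annotated exons, so the order depends on them. In untreated cells MYC stood at 524 ± 10.2 normalized counts per kilobase (SD, n = 3), MAX at 307 ± 12.7 and MXD4 at 279 ± 19.1. They were followed by MXI1 at 122, MNT at 97.0, MGA at 92.3, MXD3 at 70.4, MYCL at 29.8, MXD1 at 26.4 and MYCN at 2.65. Neighbours in that order were apart in all libraries except MAX and MXD4, and MYCL and MXD1, whose ranges overlapped. In VPA-treated cells MGA (98.3 ± 1.99) stood above MNT (82.0 ± 4.05), the reverse of the untreated order, and MXD3 at 50.6 overlapped with MYCL at 42.6. MYC stayed first at 464 ± 18.2, and MYCN, at 16.5 ± 3.28, stayed last.

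The make-up of the MYC family shifted away from MYC. Shares within a library do not depend on the scaling, but they do depend on the exon lengths used. These are of the summed level per kilobase of MYC, MYCN and MYCL. The share of MYC was 94.2, 94.6 and 93.7% in the untreated libraries, against 88.7, 88.8 and 88.7% in the VPA-treated ones. From counts without length, its mean share was 95.4% in untreated and 91.7% in VPA-treated cells. MYCN took 0.531, 0.631 and 0.272% in untreated and 3.76, 2.88 and 2.78% in VPA-treated libraries. MYCL took 5.23, 4.78 and 6.06% in untreated and 7.59, 8.35 and 8.52% in VPA-treated libraries. MYC still made up most of the family in VPA-treated cells, and none of the 3 shares overlapped between the groups. The shares are parts of a whole, so that of MYC follows from those of MYCN and MYCL. The direction of MYCN was fixed by the filter on low counts, so the separation of its share is no further result. The summed level of the family was 556 ± 12.4 in untreated and 524 ± 20.4 in VPA-treated cells, and this difference turned to a log2 ratio of 0.06 when levels were set in TPM.

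The ratio of MXD repressors to MYC activators was lower in VPA-treated cells. The summed level of MXD1, MXD3, MXD4 and MXI1 over that of the MYC family was 0.925, 0.919 and 0.844 in the untreated libraries, against 0.822, 0.802 and 0.817 in the VPA-treated ones. The groups did not overlap, although the untreated library nearest to the VPA-treated ones, at 0.844, lay closer to them than to the other untreated libraries. Taken from counts without length, the ratios were 0.967, 0.961 and 0.883 in the untreated libraries, against 0.879, 0.853 and 0.872 in the VPA-treated ones. There the groups were apart only by 0.883 against 0.879. The MYC family here includes MYCN, whose direction was fixed by the filter. MAX over the MYC family overlapped, at 0.516 to 0.579 in untreated and 0.533 to 0.602 in VPA-treated libraries. The ratio of MGA to MYC went from 0.176 ± 0.00462 to 0.212 ± 0.0124 (SD, n = 3) without overlap, and that of MXI1 to MYC from 0.234 ± 0.0173 to 0.276 ± 0.0198, with 0.2525 as the highest untreated and 0.2531 as the lowest VPA-treated value, while MNT and MXD4 over MYC overlapped between the groups. These ratios are of transcripts and say nothing of the proteins.

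**Figure D3:**
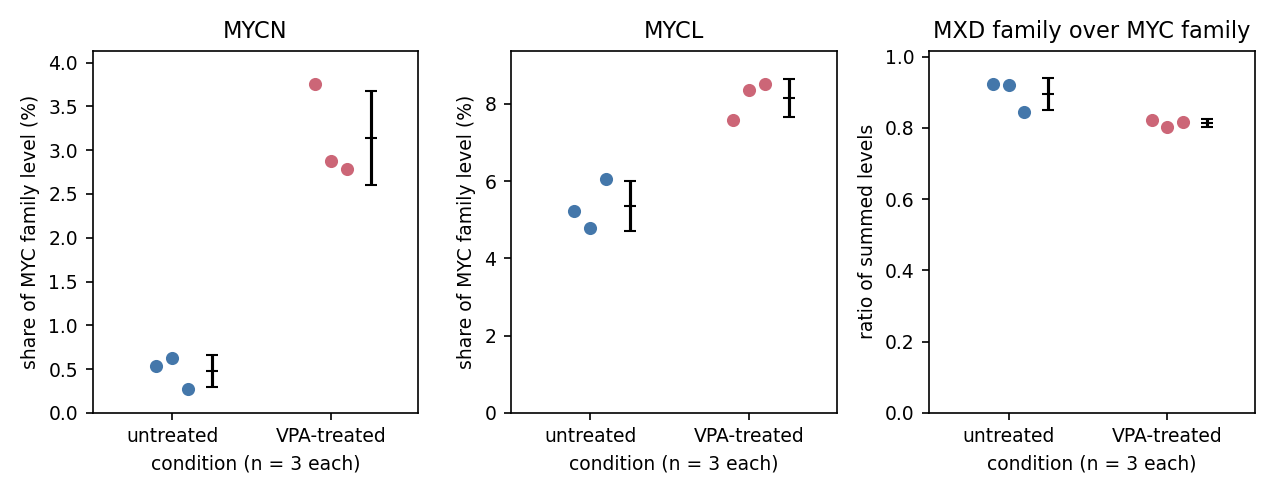
Share of MYCN (left) and of MYCL (middle) in the summed level per kilobase of the MYC family, in percent, and the ratio of the MXD family to the MYC family (right), for 3 untreated (blue) and 3 VPA-treated (red) libraries. Black marks give the mean and SD, and the groups do not overlap in any panel. The direction of MYCN was fixed by the filter on low counts.

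In the parallel arm of the network, MLX pairs with glucose-sensing partners and shares MNT and MXD proteins with MAX. Of the 5 genes listed for this arm 3 rose and 2 fell in edgeR, against 32.9% higher and 30.0% lower among all tested genes. Calls in either direction covered 62.9% of all tested genes. MLX, the hub of this arm, fell from 1506 ± 103 to 1179 ± 22.0 normalized counts (log2 fold change -0.35, SE 0.0515, adjusted p = 4.10e-06 in edgeR). MLXIP (MondoA), its partner in most cells, fell by 0.31 on the log2 scale. MLXIPL (ChREBP), the partner known from liver and fat, rose 2.17-fold, from 138 ± 18.8 to 299 ± 33.6 (log2 fold change 1.12, SE 0.106, adjusted p = 7.91e-09 in edgeR). The 2 known targets of this arm rose less, ARRDC4 by 1.29-fold and TXNIP by 1.14-fold. The call on TXNIP was lost with DESeq2 and when untreated replicate 2, VPA-treated replicate 1 or VPA-treated replicate 2 was left out, with log2 fold changes of 0.13 to 0.17. MLX and MLXIP stayed below 0 under ribosomal protein scaling, at -0.08 and -0.04, but lost their calls.

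Proteins that work with MYC on chromatin were mostly lower in transcript level. Of 11 tested cofactor genes 8 fell, 1 rose and 2 did not pass, with a median log2 fold change of -0.15 against 0.01 over all genes tested. Of the 11 genes 10 averaged 1000 or more normalized counts, and over all 4643 such genes 57.4% were lower, with the same rounded median of -0.15. KAT2A (GCN5), an acetyltransferase that MYC recruits, fell most, from 3978 ± 94.5 to 2191 ± 77.0 normalized counts (log2 fold change -0.86, SE 0.0417, adjusted p = 1.27e-13 in edgeR). KAT5 (TIP60), a further acetyltransferase, fell by 0.42 on the log2 scale. ZBTB17 (MIZ1), the zinc finger protein through which MYC represses genes, rose by 1.26-fold. The 12th gene, HCFC1, was listed at 0 in every library, as were the X-linked genes HUWE1, RBBP7, DKC1 and TAF7L of the lists below, and EIF4A1 was as well, so these zeros carry no information on expression.

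Among 10 tested genes for enzymes that modify or degrade MYC protein, 5 fell and 0 rose in edgeR, with 0 rising at an unadjusted p under 0.05 and 0 by DESeq2. USP36, a nucleolar deubiquitinase of MYC, fell by 0.51 on the log2 scale, from 2608 ± 67.7 to 1830 ± 31.2 normalized counts. AURKA, the kinase that stabilizes MYCN protein, fell by 0.32. The list had a median log2 fold change of -0.13, and 7 of its genes averaged 1000 or more counts. Over all genes of that abundance 57.4% were lower and the median was -0.15, so neither the count nor the median of the list went beyond them. With library totals 3 of its genes were higher.

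The SIN3 corepressor, which MXD proteins and MNT bring to their sites, holds the histone deacetylases HDAC1 and HDAC2 that VPA inhibits. Of its 15 tested genes 2 rose, 7 fell and 6 did not pass, a share of lower calls between the 30.0% of all tested genes and the 57.4% of genes averaging 1000 or more counts, to which 9 of the 15 belong. BRMS1, a subunit of the complex, fell by 0.40 on the log2 scale, and the histone chaperone RBBP4 fell by 0.32. SAP30L rose by 1.17-fold and ARID4A by 1.19-fold, and the call on ARID4A was lost with DESeq2 and without untreated replicate 2 or VPA-treated replicate 3. The list median was -0.08, and with library totals 5 of its genes were higher and 3 lower.

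MGA acts with E2F6 and other subunits in PRC1.6, and 7 of the 10 genes for these partners fell while 1 rose, against 30.0% lower among all tested genes and 57.4% among genes averaging 1000 or more counts, to which 7 of the 10 belong. The list median was -0.24 on the log2 scale, and with library totals 3 genes were lower and 2 higher. L3MBTL2, the subunit that typifies the complex, fell by 0.43 on the log2 scale, from 3088 ± 62.5 to 2292 ± 146 normalized counts. CBX3 (HP1 gamma) fell by 0.41, and TFDP2, a dimerization partner of E2F proteins, rose by 1.12-fold. Of 12 germ cell genes that this complex is known to silence, 3 passed the filter. Of these, STK31 and MEIOC, named here after their values were seen, rose, against 32.9% higher among all tested genes. STAG3 had a log2 fold change of 0.49 that did not pass. STK31 had 11 to 13 reads in untreated and 17 to 25 in VPA-treated libraries, and MEIOC had 29 to 39 and 50 to 54. Both calls were lost with DESeq2, and 0 to 2 of the 3 genes were called when single libraries were left out, with 0 without untreated replicate 2, VPA-treated replicate 1 or VPA-treated replicate 3.

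Genes that MYC is known to activate were mostly lower in VPA-treated cells. Over 4 lists 63 of 71 tested genes fell, 2 rose and 6 did not pass, with a median log2 fold change of -0.34. Of these 71 genes 62 averaged 1000 or more normalized counts, and abundant genes were more often lower than higher: among the 4643 genes that averaged 1000 or more normalized counts 57.4% were lower and 14.6% higher, with a median of -0.15. The counts depended on the scaling, with 51 lower and 6 higher with library totals and 27 lower and 11 higher with ribosomal protein scaling, where the median was -0.07. Of the 6 tested markers of other cell types 5 rose and 1 fell in the same libraries, as given above.

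All 25 tested genes of ribosome biogenesis fell, with a median log2 fold change of -0.39 and values from -0.57 to -0.12. Of these 25 genes 23 averaged 1000 or more normalized counts, and 57.4% of all genes of that abundance were lower. NIP7, a factor for the large ribosomal subunit, had 1815, 1904 and 1742 normalized counts in the untreated libraries, against 1186, 1289 and 1201 in the VPA-treated ones. The groups were well apart, with a fall of 0.57 on the log2 scale (SE 0.0491, adjusted p = 1.69e-09 in edgeR). WDR74, a further assembly factor, fell by 0.54. With ribosomal protein scaling 14 of the 25 were lower and 1 was higher.

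Genes of polyamine, nucleotide and energy metabolism followed, with 17 of 21 lower and 0 higher in edgeR, where 0 were higher at an unadjusted p under 0.05 and 0 by DESeq2. ODC1, the first enzyme of polyamine synthesis and a classic MYC target, had 8779, 10023 and 9866 normalized counts in the untreated libraries, against 6192, 6459 and 6356 in the VPA-treated ones. No library of one group reached the other, and ODC1 fell by 0.59 on the log2 scale (SE 0.0467, adjusted p = 4.17e-10 in edgeR). SRM, the spermidine synthase of the same pathway, fell by 0.56. The list median was -0.26, and 20 of the 21 genes averaged 1000 or more normalized counts, an abundance at which 57.4% of all genes were lower. With ribosomal protein scaling 5 genes of the list were higher and 7 lower, with a median of 0.01.

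Of the 13 tested genes for translation factors and chaperones, 12 fell. Among the 13, 11 averaged 1000 or more normalized counts, and 57.4% of all genes of that abundance were lower. HSPE1 and HSPD1, the paired mitochondrial chaperonin genes, fell by 0.66 (SE 0.111) and 0.49 (SE 0.0519) on the log2 scale. The list median was -0.34, and 10 to 12 genes were lower when single libraries were left out.

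Cell cycle targets were divided. They include 8 genes averaging 1000 or more normalized counts, an abundance at which 57.4% of all genes were lower and 14.6% higher. Of 12 tested genes 9 fell, among them CDC25A, the phosphatase that releases cyclin-dependent kinases, by 0.46 on the log2 scale, and MCM5, a helicase subunit of DNA replication, by 0.43. CCND2, the gene of cyclin D2, rose instead, with 537, 551 and 599 normalized counts in the untreated libraries, against 869, 988 and 839 in the VPA-treated ones. The groups were far apart, with a log2 fold change of 0.68 (SE 0.0656, adjusted p = 1.17e-08 in edgeR). E2F2 rose by 1.12-fold, and its call was lost with DESeq2 and without untreated replicate 2, untreated replicate 3 or VPA-treated replicate 1.

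Genes that MYC is known to repress went both ways, with 5 of 11 higher, 2 lower and 4 not called, and a median log2 fold change of 0.13. Over all tested genes 32.9% were higher and 30.0% lower, with a median of 0.01. CLU, the chaperone clusterin, rose most, from 190 ± 25.3 to 603 ± 43.8 normalized counts (3.18-fold, log2 fold change 1.67, SE 0.0855, adjusted p = 3.10e-13 in edgeR). CDKN1A, the cyclin-dependent kinase inhibitor p21, rose by 1.58-fold, from 307 ± 33.6 to 484 ± 36.5. CDKN1B, the related inhibitor p27, went the other way and fell by 0.40 on the log2 scale. HMOX1, the heme-degrading enzyme, fell by 0.22, but its log2 fold change was 0.05 with ribosomal protein scaling.

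**Figure D4:**
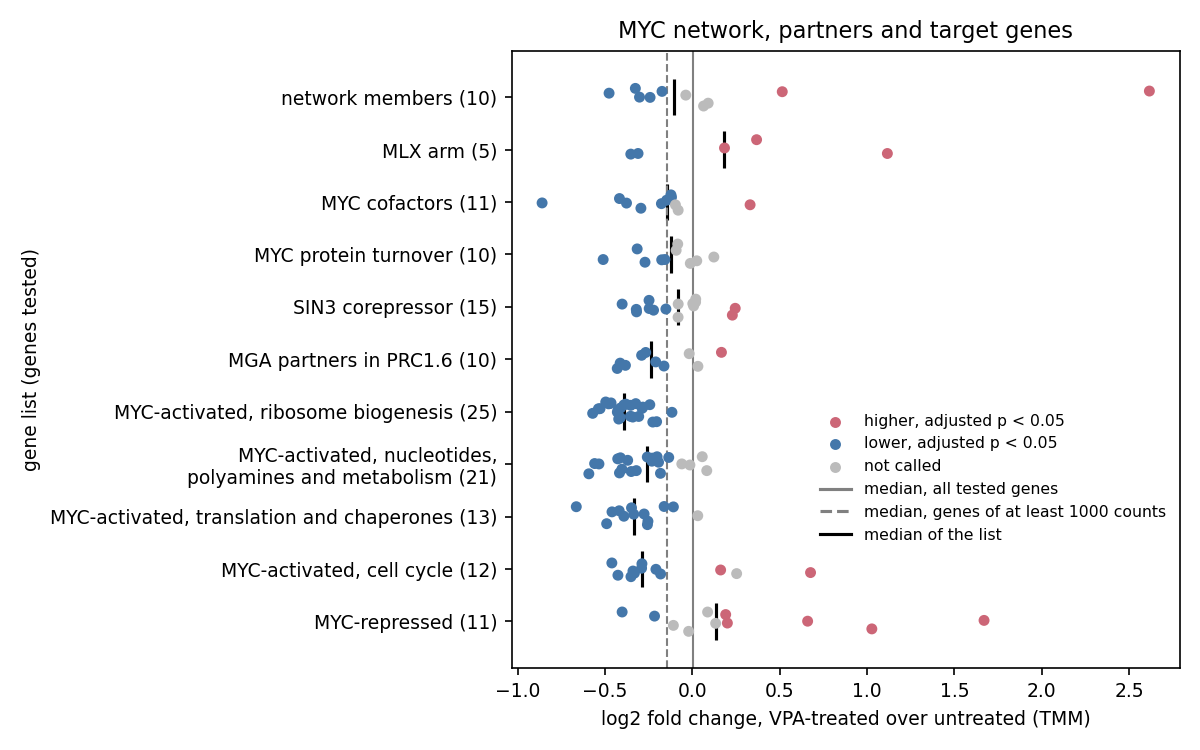
Log2 fold change (VPA-treated over untreated, TMM) of each tested gene of the network, its partners and its target lists, with red points higher, blue points lower and grey points not called at an adjusted p under 0.05. Black ticks give each list's median, and grey lines the medians of all tested genes (0.01, solid) and of genes with at least 1000 counts (-0.15, dashed), so that the MYC-activated lists lie left of both.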

How the data were processed

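RNA was extracted with TRIzol, and libraries followed a strand-specific DNBSEQ mRNA protocol. After cleaning with SOAPnuke, the authors mapped reads to hg38 with STAR (2.7.10b in the submitters' processing notes) and obtained counts from HTSeq (2.0.1 in those notes). The annotation and the strand setting are not given in the sources used here. The deposited values are raw counts per gene, 1 table a library, with 5 summary lines at the end. As shares of the counts on genes and in the summary lines together, reads in no feature came to 6.80 to 7.69% and ambiguous reads to 1.97 to 2.10%. Both stayed out of library sizes and tests.

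All 6 libraries were fitted together with edgeR 4.0.16 in R 4.3.3 (TMM, filterByExpr with a count minimum of 10, robust quasi-likelihood test of condition, prior count of 0.125), with Benjamini-Hochberg adjustment over the 15298 genes tested. SEs were taken from the fold change and the F statistic. DESeq2 1.42.0, 4 other scalings, other filters, a prior count of 2, a replicate block and leaving out each library were the alternatives; 1 scaling set libraries to 76 ribosomal protein genes. The comparisons of levels in TPM and of genes averaging 1000 or more counts were chosen after seeing the data. Levels per kilobase used exon unions of GENCODE 44, which gave a length for genes holding 99.62 to 99.70% of the counts.

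The members and lists were chosen with earlier results of these data known. Text names all members, the MLX arm, neighbouring transcripts and, in each other list, up to 2 genes with the largest rise and fall among called genes averaging 100 or more normalized counts. The fits were tested on simulated data.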

Additional observations from a re-analysis of the deposited data

How the results depend on the processing

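Depth was even between libraries and limits mainly MYCN and the germ cell genes, whose reads were few. MYCN, MYCL, MXD3 and MXD4 kept direction and call under every alternative that tested them, apart from ribosomal protein scaling for MXD3 and MXD4. MYCN drops out when 10 counts are required in every library, which left 0 members up-regulated at both thresholds.

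With library totals 4 members were higher and 2 lower, 4 cofactor genes were lower, 3 turnover genes were higher and 3 lower, 5 SIN3 genes were higher and 3 lower, 2 PRC1.6 genes were higher and 3 lower, 3 metabolic genes were higher and 1 MYC-repressed gene was lower. With ribosomal protein scaling 5 members were higher and 0 lower (0 at an unadjusted p under 0.05), 0 genes of the MLX arm were lower, 6 cofactor genes were higher and 3 lower, 5 turnover genes were higher and 1 lower, 9 SIN3 genes were higher and 1 lower, and 3 PRC1.6 genes were higher and 3 lower. Under that scaling 1 ribosome biogenesis gene was higher and 14 lower, 5 metabolic genes were higher and 7 lower, 2 translation genes were higher and 4 lower, 2 cell cycle genes were lower and 1 MYC-repressed gene was lower. Its log2 fold changes turned sign for MYC (0.0938), MAX (0.231), MNT (0.0261) and HMOX1 (0.0508), and that of MAX also did with upper quartile scaling (0.0274) and library totals (0.0938). It also ended the calls on MXD1, MXD3, MXD4, MLX, MLXIP, AURKA and RBBP4. These shifts follow the median of all genes given above. Upper quartile scaling gave 5 lower cofactor genes, 1 higher turnover gene and 1 higher metabolic gene, and the minimum of 10 counts in every library gave 1 higher metabolic gene. DESeq2 called 1 SIN3 gene, 0 germ cell genes and 1 cell cycle gene higher, and the cause was not tested. The summed MYC family level had a log2 ratio of 0.0592 in TPM.

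Same-numbered libraries correlated at 0.126, 0.018 and 0.0708 in their deviations from group means, which does not meet the rule for paired libraries (every pair over 0.1). Untreated replicate 2 correlated slightly better with VPA-treated replicate 3, at 0.0313. A replicate block gave 3 higher and 5 lower members, with MGA added (adjusted p = 0.0183 in edgeR), 1 higher metabolic gene and no other count beyond 1.5 times the unblocked one. When single libraries were left out, 1 to 2 SIN3 genes, 0 to 2 germ cell genes and 1 to 3 cell cycle genes were higher, and 4 to 5 members were lower.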
